A study of Danio rerio with 12 samples.

Results

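Reserpine was compared with vehicle in whole zebrafish (Danio rerio) larvae at 2 days post fertilisation (dpf), over every feature of the array. The comparison holds 4 of the 12 arrays of the series, 2 from reserpine larvae and 2 from control larvae, and 58127 of 73244 features passed the filter on low values and were tested. They include 18385 of the 18963 genes that could be named from a probe set with a single gene symbol. All values are log2 expression values as deposited, so that a difference of 1 is a 2-fold difference.

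Reserpine is a plant alkaloid that blocks the vesicular monoamine transporter. That transporter, encoded in vertebrates by slc18a1 and slc18a2, loads serotonin, dopamine, noradrenaline and adrenaline into vesicles with the help of the proton gradient set up by the vesicle proton pump. A monoamine that is not packed stays in the cytosol, where monoamine oxidase (mao) breaks it down, so reserpine is known for emptying monoamine stores. Serotonin is present in embryos before neurons form, and the series title names this early serotonin and later development as its subject.

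Larvae of both groups were wild-type fish of the AB line. Embryos were dechorionated with Proteinase K and injected at the zygote stage, per the titles, with reserpine that had been taken up in ethanol, then DMSO and last a KCl solution holding TRITC-dextran, a fluorescent tracer. Control embryos were injected with the ethanol and DMSO in that tracer solution, per the treatment protocol. The description of the control samples calls them only normal larvae, so whether the injection itself differs between the groups rests on the protocol. Injected dose is not given in the sources used here. Each array carried RNA pooled from 30 to 40 larvae, and the 2 arrays of a group are labelled as biological replicates. In RNA of whole larvae, fewer cells of a type and less RNA per cell cannot be told apart.

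Array medians lay between 6.44 and 6.56 over the series. The 26 genes of the exocrine pancreas list, mostly of digestive enzymes, mark larval age. They averaged 6.21 and 7.07 on the 2 dpf controls and 6.34 and 7.04 on the 2 dpf reserpine arrays. On the control and reserpine arrays of 4 dpf they averaged 10.7 to 11.01.

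The 4 arrays did not group by treatment. Reserpine replicate 2 was nearly the same as control replicate 2, with 7 of 18385 genes at least 2-fold apart (0.0381%) and a correlation of 0.990 over the features tested. Reserpine replicate 1 lay closest to 5-HT replicate 1, an array from larvae injected with serotonin, with 50 genes at least 2-fold apart and a correlation of 0.986. The reserpine replicates differed from each other 2-fold in 277 genes (1.51%) and the control replicates in 292 (1.59%). Control replicate 1 stood away from every other 2 dpf array, by 255 to 565 genes. Most values are therefore given for each reserpine array separately, and some genes and lists only by the joint difference.

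**Figure D1:**
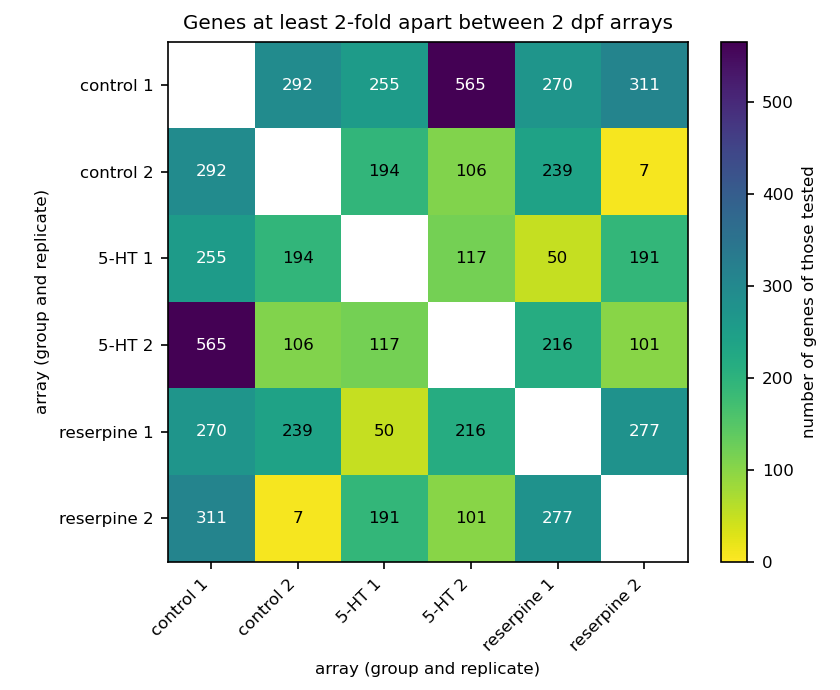
Number of genes at least 2-fold apart between each pair of the 6 arrays of 2 dpf, out of 18385 genes tested, with both axes naming the arrays. The lowest count, 7, is between control replicate 2 and reserpine replicate 2, and the next, 50, is between 5-HT replicate 1 and reserpine replicate 1.

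No feature passed the test. limma, fitted to all 12 arrays, called 0 of 58127 features at an adjusted p under 0.05 (0%), and the smallest adjusted p was 0.998. Before adjustment, 2424 features (4.17%) and 304 genes (1.65%) had a p under 0.05, where chance alone would give 2906 features. The median standard error of a difference was 0.20, which gives a median 95% interval of 0.44 to either side. For a feature of median precision, a smaller difference could not be told from 0 with 2 arrays in each group. That interval is unadjusted, so a call after adjustment over 58127 features needed a larger difference. An exact permutation test of 2 arrays against 2 has 6 splits and a smallest two-sided p of 0.333, so it cannot reach the threshold.

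Both reserpine arrays lay above both controls in 1770 genes (9.63%) and below both in 1941 (10.6%). Of these, 113 were higher and 58 lower by at least 0.5, and 4 were higher and 0 lower by at least 1. Over all genes tested the median difference was -0.02, from -1.14 to 1.36. The genes below are named as values that did not pass, each with an adjusted p of 0.998.

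The transporter that reserpine blocks was measured at similar levels in both groups. slc18a2, the transporter of monoamine neurons, had 7.03 and 6.95 on the control arrays and 7.14 and 7.11 on the reserpine arrays. Its difference was 0.14 (SE 0.18, 95% interval -0.28 to 0.55), so the reserpine arrays were slightly higher, within the error. slc18a1, the form of endocrine cells in mammals, was dim, at 3.94 and 4.56 in control and 4.52 and 4.43 with reserpine. The 20 tested genes of the vesicle proton pump had a median difference of -0.09, with 14 below the control mean (70%, against 54.3% of all genes). The list median was -0.22 for reserpine replicate 1 and 0.003 for replicate 2.

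Of the genes that make monoamines, ddc, th and the tryptophan hydroxylase genes had their lowest value on reserpine replicate 1. ddc, which forms serotonin and dopamine from their precursors, had 6.34 and 6.00 in control and 5.25 and 6.17 with reserpine. Its difference of -0.46 (SE 0.29) came from replicate 1, while replicate 2 fell between the controls. tph1b, a form of tryptophan hydroxylase, the enzyme that starts serotonin synthesis, had 7.44 and 7.10 in control and 6.90 and 7.10 with reserpine. Its paralog tph1a (7.58 and 7.24 against 7.14 and 7.27) and the neuronal form tph2 (7.53 and 7.65 against 7.38 and 7.65) overlapped between the groups as well. th, which starts dopamine synthesis, had 8.53 and 8.35 in control and 8.21 and 8.33 with reserpine, and th2, its fish paralog, 5.25 and 5.24 against 5.10 and 5.01. The groups did not overlap for th and th2, but were close for th.

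Genes of monoamine uptake and breakdown showed small differences too. The serotonin transporter genes slc6a4a and slc6a4b were above control on both reserpine arrays. slc6a4a had 9.92 and 9.85 in control and 10.11 and 9.98 with reserpine, a difference of 0.16 (SE 0.14), and slc6a4b 6.09 and 6.49 in control and 6.60 and 6.57 with reserpine, a difference of 0.30 (SE 0.17). The 5-HT arrays of the same day had 10.45 and 10.28 for slc6a4a and 6.68 and 6.87 for slc6a4b, higher than both reserpine arrays for each gene. mao had 8.13 and 7.93 in control and 7.97 and 8.11 with reserpine, dbh, which makes noradrenaline, 7.01 and 7.12 against 7.03 and 7.11, and the noradrenaline transporter gene slc6a2 7.34 and 6.81 against 6.90 and 6.93. These 3 overlapped between groups.

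**Figure D2:**
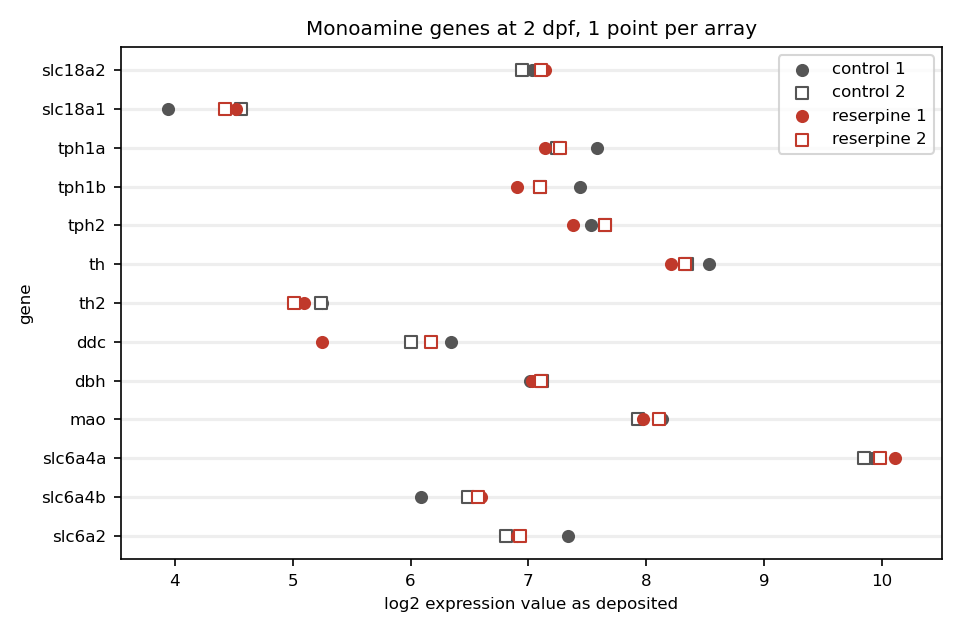
Log2 expression values of 13 monoamine genes on the x axis, 1 point per array for the 2 control arrays (grey) and the 2 reserpine arrays (red) of 2 dpf. The colours overlap or lie close together in each gene, and ddc has the widest spread, with reserpine replicate 1 at 5.25.

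Over the 23 tested genes of monoamine synthesis, uptake and breakdown the median difference was 0.005, with 12 above and 11 below the control mean. It was -0.09 for reserpine replicate 1 and 0.06 for replicate 2. Serotonin receptor genes had a median of -0.03 over 20 members, from -0.32 to 0.24, and the median was 0.03 without control replicate 1. Both reserpine arrays exceeded both controls in 3 of them (15%, against 9.63% of all genes), which were the receptor genes htr2aa (6.74 and 6.64 against 6.97 and 6.89), htr7a and htr5aa. Dopamine and adrenergic receptor genes had a median of -0.04 over 27 members, with -0.15 for replicate 1 and 0.06 for replicate 2, and was -0.07 without control replicate 1 and -0.08 without control replicate 2. The lowest was drd7, a dopamine receptor gene, with 6.18 and 5.92 in control and 5.52 and 5.83 with reserpine. Genes that specify monoamine neurons had a median of -0.06 over 19 members, which was 0.04 without control replicate 1 and -0.16 without control replicate 2. Among them gata2a, a transcription factor gene also used in blood and vessels, had 9.24 and 9.06 in control and 9.96 and 9.11 with reserpine. Reserpine replicate 1 was at the level of the 5-HT arrays (9.94 and 10.06), and replicate 2 lay between the controls.

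The genes with the smallest p above control were mixed in function. scg5, a chaperone of a prohormone convertase in neuroendocrine cells, had 5.22 and 5.43 in control and 6.18 and 5.79 with reserpine, a difference of 0.66 (SE 0.18). gcgra, a glucagon receptor gene, had 8.12 and 8.54 in control and 9.21 and 8.82 with reserpine (0.69, SE 0.19). tnnc1a, the troponin C of heart muscle, had 7.03 and 7.26 in control and 7.79 and 7.53 with reserpine (0.52, SE 0.15). In all 3 the groups were separate and reserpine replicate 1 was the higher of its pair. Of these, the 5-HT arrays resembled control for tnnc1a (7.27 and 7.21) and reserpine for scg5 (5.87 and 5.91) and gcgra (9.01 and 9.34).

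Blood and immune genes were also among them. runx1, a transcription factor needed for blood stem cells, had 7.20 and 7.15 in control and 7.87 and 7.64 with reserpine, a difference of 0.58 (SE 0.17). themis2, which acts in signalling of immune cells in mouse, had 5.05 and 5.20 in control and 5.61 and 5.59 with reserpine (0.48, SE 0.15). cfhl2, a complement factor H like gene, had 6.89 and 7.03 against 7.93 and 7.74 (0.88, SE 0.27). The remaining 4 were ly6m2 (0.51, SE 0.14), the connexin gene gjd6 (0.51), the kinase gene pimr113 (0.62) and PRR13 (0.56). For all 10, both reserpine arrays lay above both controls. Both 5-HT arrays did so too in every one but tnnc1a, for example runx1 (7.65 and 8.11) and PRR13 (9.91 and 9.95). The genes were chosen by their difference from these same controls, which favours 5-HT values above control as well. The share of all genes with this 5-HT pattern was not computed, so no shared effect is read from the count.

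The named genes with the smallest p below control included channel and vesicle genes. A probe set named FCF1, after a factor of ribosome assembly, had a smaller p than any of them, at 6.46 and 6.45 in control and 5.52 and 5.67 with reserpine (-0.86, SE 0.14). It is named here after its values were seen, because a brighter fcf1 probe set stood for the gene, and that one had 8.63 and 8.73 against 8.82 and 8.65. Of the 10 genes chosen, scn4bb, a beta subunit of sodium channels, had 7.70 and 7.57 in control and 7.03 and 7.19 with reserpine, a difference of -0.53 (SE 0.17). cacnb3a, a beta subunit of calcium channels, had 8.11 and 7.66 in control and 7.19 and 7.46 with reserpine (-0.56, SE 0.18). stx3a, a syntaxin of vesicle fusion that serves ribbon synapses of the retina in mouse, had 8.83 and 8.54 against 7.87 and 8.36 (-0.57, SE 0.18). Each pair of groups was separate, and replicate 1 was the lower of the reserpine arrays in all 3.

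pcdh1g26, a clustered protocadherin of neuronal cell adhesion, had 10.80 and 10.39 in control and 9.24 and 10.11 with reserpine, a difference of -0.92 (SE 0.27). ndufb4, a subunit of respiratory complex I, had 7.86 and 8.06 in control and 7.14 and 7.39 with reserpine (-0.70, SE 0.20). cyp3c3, a cytochrome P450 gene, had 5.71 and 5.54 against 5.11 and 4.98 (-0.58, SE 0.20). The 5-HT arrays were lower still for ndufb4 (6.57 and 6.98) and cyp3c3 (4.13 and 4.65). pm20d1.1, whose mouse counterpart makes N-acyl amino acids, had 5.98 and 5.59 in control and 5.01 and 5.29 with reserpine (-0.64, SE 0.18), and here the 5-HT arrays were at control level (5.92 and 5.85). The last 3 were the anoctamin gene ano3 (-0.39), the odorant receptor gene or90d3 (-0.57) and jac9 (-0.52). Of the 10 genes chosen, all but pm20d1.1 and cacnb3a also had both 5-HT arrays below both controls. Examples were stx3a (7.97 and 7.77) and scn4bb (7.34 and 7.14). A choice by difference from these same controls favours this too. The share of all genes with both 5-HT arrays below both controls was not computed, so no shared effect is read from it.

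**Figure D3:**
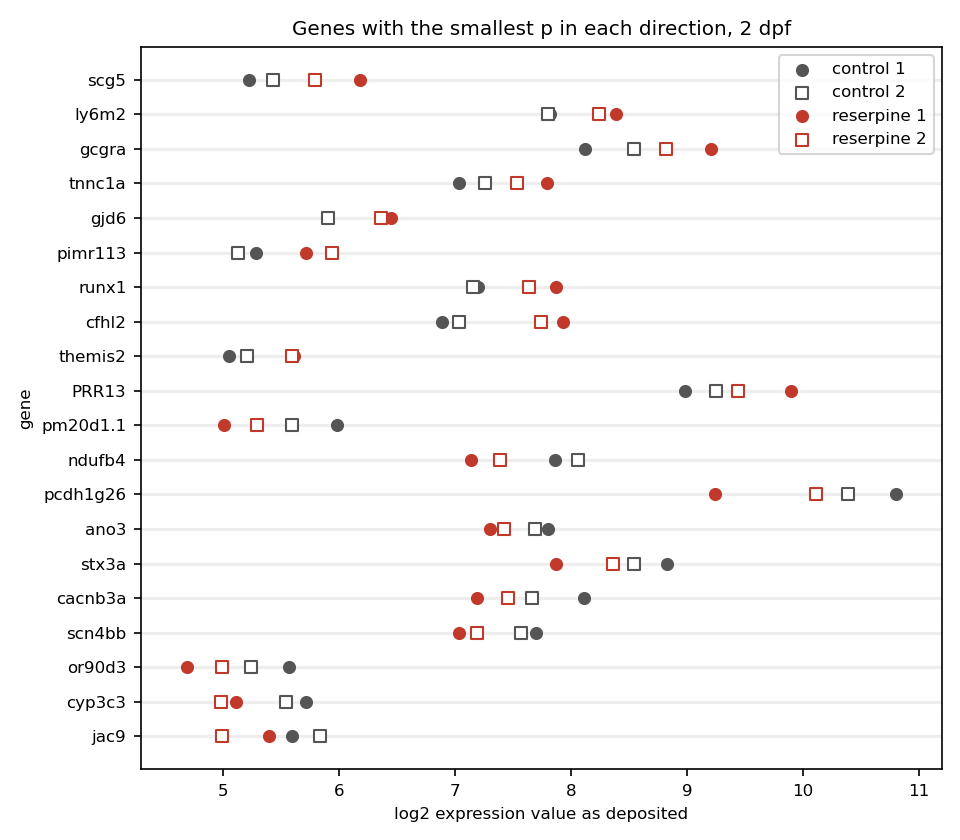
Log2 expression values (x axis) of the 10 genes above and the 10 genes below control with the smallest p, 1 point per array for control (grey) and reserpine (red) at 2 dpf. The groups do not overlap in any of the 20, and a choice by smallest p favours such genes. The gap between the nearest arrays of the groups is small beside the spread within a pair for several genes, among them pcdh1g26, stx3a, cacnb3a, PRR13 and jac9.

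The lists of transmission, synaptic vesicle, pan-neuronal and neural progenitor genes had median differences below 0. Their medians were lower on reserpine replicate 1 than on replicate 2. Against control replicate 2 alone, the medians of reserpine replicate 2 were above 0 in these lists, from 0.03 for pan-neuronal genes to 0.14 for the transmission genes. Neuropeptide genes (median difference 0.01) and genes of monoamine synthesis, uptake and breakdown (0.005) did not lie below control as lists. Genes of GABA, glycine and glutamate transmission had a median difference of -0.17, with 34 of 40 below the control mean (85%, against 54.3% of all genes). The list median was -0.41 for replicate 1 and 0.03 for replicate 2. It was -0.06 without control replicate 1 and -0.26 without control replicate 2. In 1 of the 40 genes both reserpine arrays were below both controls (2.5%, against 10.6% of all genes), the glutamate receptor gene grm5a (7.44 and 7.32 against 6.96 and 7.18). gabra3, a GABA receptor subunit, had 9.89 and 9.51 in control and 9 and 9.55 with reserpine, so replicate 2 lay between the controls.

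Genes of synaptic vesicles and transmitter release showed the same split, with a median of -0.12 over 27 members, -0.31 for replicate 1 and -0.05 for replicate 2, and -0.20 without control replicate 2. rab3ab, a vesicle GTPase, had 11.38 and 11.27 in control and 10.79 and 11.13 with reserpine, and sv2a, a vesicle membrane protein, 11.86 and 11.54 against 11.25 and 11.53. Pan-neuronal genes had a median of -0.11 over 29 members, which was 0.005 without control replicate 1 and -0.24 without control replicate 2. Their list median was -0.135 for reserpine replicate 1 and -0.075 for replicate 2. The neurofilament gene nefmb had 9.49 and 9.30 in control and 8.88 and 9.15 with reserpine, and was lower again with 5-HT (8.86 and 8.65). Neural progenitor and radial glia genes had a median of -0.12 over 25 members, also at 0.005 without control replicate 1. Their list median was -0.175 for reserpine replicate 1 and -0.01 for replicate 2. Among them pax6b, an eye and pancreas transcription factor gene, had 9.81 and 9.89 in control and 8.95 and 9.76 with reserpine.

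As a list, photoreceptor genes averaged lower on reserpine replicate 1 than on any other array of the day, though not every member did so. The list of 39 tested genes averaged 8.01 and 8.34 on the controls, 7.56 on reserpine replicate 1 and 8.47 on replicate 2, with 8.30 and 8.26 on the 5-HT arrays. Its median difference was -0.68 for replicate 1 and 0.28 for replicate 2. Of the 39 genes, 28 lay below the control mean (71.8%, against 54.3% of all genes) and 11 above it. Both reserpine arrays were below both controls in only 2 (5.13%, against 10.6% of all genes) and above both in 3 (7.69%, against 9.63%). The joint median of -0.18 was -0.325 without control replicate 1 and 0 without control replicate 2. The members cnga3a (7.24) and rcvrn2 (10.66) were lowest on reserpine replicate 1. six7 was lower with 5-HT (9.22 and 9.24) than on reserpine replicate 1 (9.34). guca1c on reserpine replicate 1 (5.95) was above control replicate 1 (5.46) and both 5-HT arrays (5.79 and 5.8). Over all genes tested, 7 were lower on replicate 1 than on each of the other 5 arrays of 2 dpf by at least 2-fold, a search made after the values were seen. All 7 act in photoreceptors: the cone transducin genes gnat2 and gnb3b, the cone phosphodiesterase gene pde6c, the red opsin gene opn1lw2, the disc membrane genes prph2a and rom1a, and rgs9a, which ends the light response.

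gnat2 had 9.64 and 10.65 in control, 8.30 and 11.03 with reserpine and 10.36 and 10.71 with 5-HT. prph2a had 7.86 and 8.85 in control, 6.53 and 9 with reserpine and 8.62 and 8.6 with 5-HT. Both genes were lowest on reserpine replicate 1 and highest on reserpine replicate 2, so their group differences of -0.48 (SE 0.68) and -0.59 (SE 0.62) were smaller than their errors. In 0 genes was replicate 2 above the 5 other arrays by 2-fold, and in 1 provisional gene, si:dkey-14d8.6, was it below them. Lens crystallin genes also split the pair, with list medians of -0.28 for replicate 1 and 0.23 for replicate 2.

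**Figure D4:**
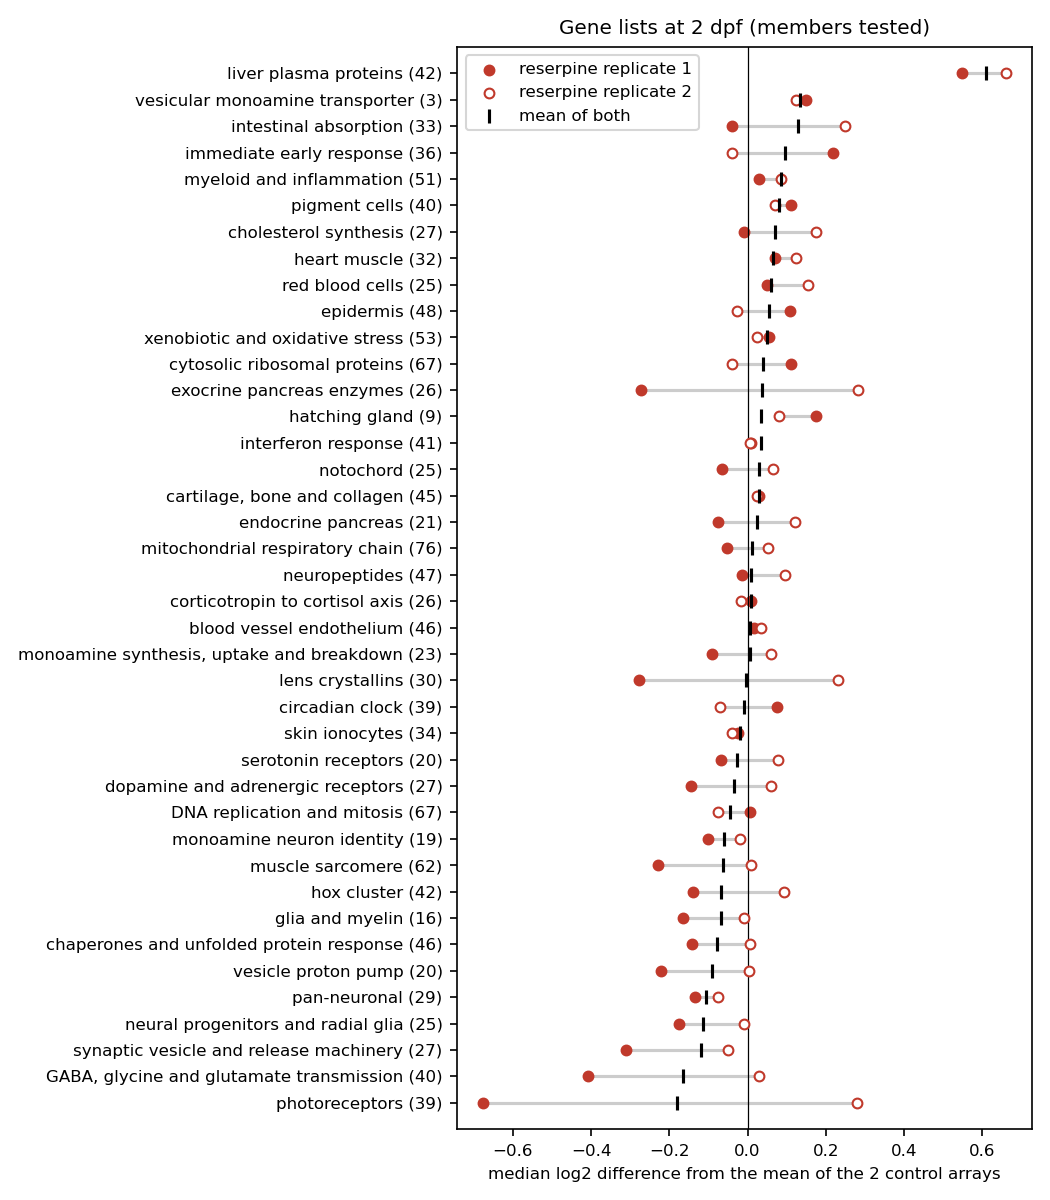
Median log2 difference from the control mean (x axis) for 40 gene lists, for reserpine replicate 1 (filled), replicate 2 (open) and the mean of both (bar), with the number of genes tested in brackets. The replicates lie on opposite sides of 0 for photoreceptors (-0.68 and 0.28) and on the same side for liver plasma proteins (0.55 and 0.66).

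Liver plasma protein genes had the highest list median, and it rested on control replicate 1. The list averaged 8.76 on control replicate 1 and 10.07 on control replicate 2, against 9.87 and 9.99 on the reserpine arrays. Its median difference was 0.61 over 42 genes, with 39 above the control mean, -0.10 without control replicate 1 and 1.295 without control replicate 2. apoa2, an apolipoprotein gene, had 11.11 and 12.27 in control and 12.49 and 12.38 with reserpine, and itih2, which makes a plasma protease inhibitor chain, 9.63 and 11.31 against 11.44 and 11.36. In both genes control replicate 1 was more than 1 below the other arrays, which were close together. Both reserpine arrays exceeded both controls in 6 of the 42 (14.3%, against 9.63% of all genes).

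Some genes of the gut and its glands were also lowest on control replicate 1. fabp2, an intestinal fatty acid binding protein gene, had 9.87 and 11.20 in control and 11.24 and 11.23 with reserpine. dgat2, which makes triglyceride, had 9.78 and 11.08 against 11.27 and 11.22. ins, the insulin gene, had 8.09 and 9.17 in control and 9.61 and 9.08 with reserpine, and gcgb, a glucagon gene, 7.06 and 7.97 against 8.26 and 8.24. Of these only ins overlapped between groups. The endocrine pancreas list that holds ins and gcgb did not follow control replicate 1 as a whole. It had 11 of 21 genes above and 10 below the control mean, a median difference of 0.03, and a median of control replicate 1 minus replicate 2 of 0.04. slc15a1a, a peptide transporter gene, did not follow control replicate 1: it had 6.60 and 6.56 in control and 6.89 and 6.99 with reserpine, a difference of 0.36 (SE 0.13). Intestinal absorption genes had a median of 0.13 over 33 members, and -0.06 without control replicate 1. Their list median was -0.04 for reserpine replicate 1 and 0.25 for replicate 2.

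As a list, skeletal muscle genes were lower mainly on replicate 1 of the reserpine pair, and about as low on both 5-HT arrays. The sarcomere list averaged 10.59 and 10.61 in control, 10.34 on reserpine replicate 1 and 10.59 on replicate 2. It averaged 10.38 and 10.37 with 5-HT. The median difference between reserpine and control was -0.06 over 62 genes. Medians were -0.23 for replicate 1 and 0.01 for replicate 2, and the joint median was -0.12 without control replicate 1. Both reserpine arrays lay below both controls in 14 of the 62 (22.6%, against 10.6% of all genes), and 45 of 62 lay below the control mean (72.6%, against 54.3%).

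tpm1, a tropomyosin gene, had 6.74 and 7.10 in control and 5.32 and 6.62 with reserpine, a difference of -0.95 (SE 0.34), and the 5-HT arrays had 5.49 and 5.37. neb, the giant nebulin that sets thin filament length, had 11.60 and 11.21 in control and 10.64 and 10.84 with reserpine (-0.67, SE 0.25). The titin genes ttn.1 and ttn.2, which span the sarcomere, had differences of -0.77 and -0.84, and the controls were themselves 0.77 and 0.85 apart. Reserpine replicate 1 was the lower of its pair in all 4. In neb, ttn.1 and ttn.2 replicate 1 minus replicate 2 was only -0.20, and both reserpine arrays lay below both controls. With 5-HT, neb had 10.89 and 10.42, ttn.1 9.70 and 8.98 and ttn.2 9.61 and 8.95.

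Heart muscle genes lay above control on both reserpine arrays by a small amount, with a median of 0.07 over 32 genes, 0.07 for replicate 1 and 0.13 for replicate 2, and 0.04 without control replicate 2. Both reserpine arrays exceeded both controls in 9 of them (28.1%, against 9.63% of all genes). Besides tnnc1a these included nppa, the atrial natriuretic peptide gene (8.12 and 8.69 against 8.94 and 8.78), and the cardiac transcription factor gene nkx2.5 (6.28 and 6.58 against 6.71 and 6.72). myl7, a cardiac myosin light chain gene, had 9.09 and 10.05 in control and 10.19 and 10.05 with reserpine, so that control replicate 1 alone was low.

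Among inflammation genes, il1b had the largest difference from control, and reserpine replicate 1 was the higher array. il1b, the cytokine interleukin 1 beta, had 6.98 and 6.95 in control and 8.63 and 7.43 with reserpine, a difference of 1.07 (SE 0.40, 95% interval 0.17 to 1.96), and 7.93 and 7.74 with 5-HT. At 4 dpf the arrays are others, and the description of reserpine replicate 2 there names the younger age, while its title, source and age label give 4 dpf, where it was placed. Its exocrine pancreas list averaged 10.7, near the 4 dpf controls. On these arrays il1b had 9.32 and 8.63 in control and 10 and 10.52 with reserpine. The groups were thus separate at both ages, reserpine above control each time. mmp9, a matrix protease induced in inflammation, overlapped at 2 dpf (7.77 and 7.38 against 8.38 and 7.61) and was separate at 4 dpf (8.56 and 7.96 against 9.38 and 9.73).

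fosl1a, an AP-1 transcription factor gene, had 7.67 and 7.65 in control and 10.41 and 7.48 with reserpine at 2 dpf. Its difference of 1.29 (SE 0.79) came from replicate 1, which was above each of the other 5 arrays of the day by at least 2-fold. At 4 dpf it had 8.55 and 7.67 in control and 9.08 and 10.39 with reserpine. The immediate early list had a median of 0.10 over 36 genes, 0.22 for replicate 1 and -0.04 for replicate 2. It was 0.17 without control replicate 1 and 0.065 without control replicate 2. The list averaged higher on replicate 1 in every group of the day. Its means were 8.36 and 8.10 in control, 8.58 and 8.16 with reserpine and 8.505 and 8.23 with 5-HT. fosb had 5.16 and 4.53 in control, 6.00 and 5.14 with reserpine and 5.46 and 4.74 with 5-HT. junba had 7.86 and 7.86 in control, 8.72 and 8.04 with reserpine and 8.15 and 8.36 with 5-HT. Myeloid and inflammation genes had a median of 0.09 over 51 tested members of 53, with 41 above the control mean (80.4%, against 44.3% of all genes). Its medians were 0.03 for replicate 1 and 0.09 for replicate 2, so by median the list was not higher on replicate 1. By list mean the reserpine arrays were close, at 7.46 for replicate 1 and 7.42 for replicate 2. Without control replicate 1 the median was 0.04, and without control replicate 2 it was 0.17. Both reserpine arrays exceeded both controls in 7 (13.7%, against 9.63%), among them the chemokine receptor gene cxcr3.2 (6.78 and 6.92 against 7.26 and 7.12).

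Sterol and lipid regulators separated the reserpine replicates in a further way. srebf1 and srebf2, the transcription factors that switch on lipid and cholesterol synthesis, were at the 5-HT level on reserpine replicate 1 and near control on replicate 2. srebf1 had 8.82 and 8.97 in control, 9.80 and 9.07 with reserpine and 9.84 and 10.05 with 5-HT. srebf2 had 10.45 and 10.59 in control, 11.19 and 10.65 with reserpine and 11.12 and 11.29 with 5-HT. The synthesis list had a median of 0.07 over 27 genes, -0.01 for replicate 1 and 0.18 for replicate 2. It was 0.03 without control replicate 1 and 0.21 without control replicate 2, and both reserpine arrays exceeded both controls in 7 (25.9%, against 9.63% of all genes).

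Among skin genes, tp63 and foxi3b split the reserpine arrays in this way, and their lists did so little or not at all. tp63, the regulator of epidermal basal cells, had 10.83 and 10.73 in control, 11.37 and 10.74 with reserpine and 11.40 on both 5-HT arrays. foxi3b, a regulator of ion-transporting skin cells, had 7.79 on both controls, 8.36 and 7.81 with reserpine and 8.36 and 8.53 with 5-HT. In both genes reserpine replicate 1 matched the 5-HT arrays and replicate 2 the controls. The epidermis list had a median of 0.06 over 48 genes, 0.11 for replicate 1 and -0.03 for replicate 2. The ionocyte list that holds foxi3b had medians of -0.03 and -0.04, with 18 of 34 genes below the control mean. Its member atp1a1a.4, a sodium pump subunit, went against foxi3b, at 9.87 and 9.78 in control and 9.22 and 9.78 with reserpine.

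Lists of basic cell functions had median differences between -0.08 and 0.05. Respiratory chain genes had a median of 0.01 over 76 genes, with -0.053 for reserpine replicate 1 and 0.053 for replicate 2. Ribosomal protein genes had 0.04 over 67, with 0.11 for replicate 1 and -0.04 for replicate 2. DNA replication and mitosis genes had a median of -0.05 over 67. Among them cdc45, needed for DNA replication, had 8.12 and 7.75 in control and 7.43 and 7.52 with reserpine (-0.46, SE 0.16). The median of the replication list was 0.04 without control replicate 1 and -0.15 without control replicate 2. Hox genes, which pattern the body axis, had a median of -0.07 over 42, with -0.14 for replicate 1 and 0.09 for replicate 2. Chaperone genes had -0.08 over 46, with 32 below the control mean (69.6%, against 54.3% of all genes). Their list median was -0.14 for reserpine replicate 1 and 0.005 for replicate 2. Xenobiotic and oxidative stress genes had 0.05 over 53 and genes from corticotropin to cortisol 0.01 over 26. Without control replicate 1 the medians were -0.06 for respiratory chain genes, 0 for ribosomal protein genes, 0 for xenobiotic genes and -0.05 for chaperone genes. Across the 40 lists 0 members passed the test.

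A small set of genes, some of them clock genes and pancreatic enzyme genes, differed by replicate number in every group of the day. In 14 genes replicate 1 was higher than replicate 2 by at least 2-fold in all 3 groups of 2 dpf, and in 23 genes replicate 2 was higher. cry1a, a clock repressor gene that light induces in zebrafish, had 10.21 and 7.54 in control, 10.09 and 7.34 with reserpine and 10.17 and 7.77 with 5-HT. per2, another light-induced clock gene, had 9.91 and 8.01, 9.89 and 8.35, and 10.06 and 7.93 in the same order. The trypsin gene prss59.2 ran the other way, with 7.09 and 10.44 in control, 7.52 and 10.47 with reserpine and 8.12 and 11.42 with 5-HT. For cry1a, per2 and prss59.2 the treatment difference was 0.23 or less in size. The lists these genes belong to were mixed. Over 39 clock genes the median of replicate 1 minus replicate 2 was 0.24 in control and 0.12 with reserpine, and nr1d1, a clock repressor gene, had 6.92 and 7.19 in control and 7.97 and 7.28 with reserpine. Over the 26 genes of the exocrine pancreas list that median was -0.72 in control and -0.48 with reserpine. The elastase gene cela1.1 ran the other way, at 5.02 and 4.53 against 4.51 and 4.06.

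**Figure D5:**
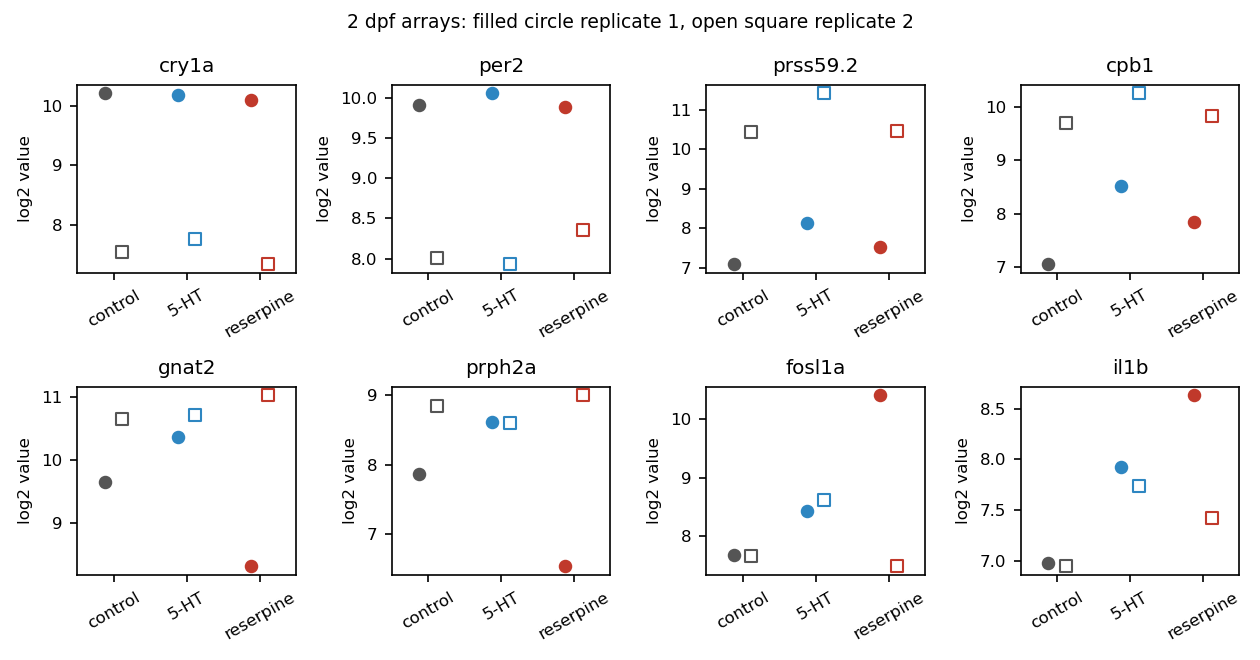
Log2 expression values (y axis, a separate scale for each gene) of 8 genes on the 6 arrays of 2 dpf by group, with replicate 1 as a filled circle and replicate 2 as an open square. cry1a, per2, prss59.2 and cpb1 differ by replicate number in all 3 groups, while gnat2, prph2a, fosl1a and il1b set reserpine replicate 1 apart.

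Compared within a replicate number, the treatment difference depended on the number. Between the arrays of replicate 2, the medians of the 40 lists lay between -0.07 and 0.16. Between the arrays of replicate 1 they lay between -0.48 for photoreceptors and 1.28 for liver plasma proteins, and 270 genes were at least 2-fold apart against 7 for replicate 2. A pair of arrays gives no replicate check, so neither difference was tested.

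The reserpine difference was then compared between ages, with 4 dpf arrays that share no sample with those of 2 dpf. limma called 0 of 58127 features for the difference between ages (0%), with 1430 at an unadjusted p under 0.05 (2.46%). Among genes with the smallest p, ifi27.8, of an interferon-induced family, was below control at 2 dpf (7.15 and 7.14 against 6.71 and 6.62) and above it at 4 dpf (6.67 and 6.51 against 7.31 and 6.89). themis2 ran the other way, above control at 2 dpf and below it at 4 dpf (6.09 and 5.88 against 5.62 and 5.71). The age difference was 0.99 (SE 0.24) for ifi27.8 and -0.80 (SE 0.21) for themis2, each with an adjusted p of 1.

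Reserpine larvae were also set against 5-HT larvae of the same day, a comparison without the controls. limma called 0 of 58127 features (0%), with a smallest adjusted p of 0.0767 and 3513 features at an unadjusted p under 0.05 (6.04%). Among the genes tested the smallest adjusted p in limma was 0.772, the value of both genes named next. gabrr3a, a GABA receptor subunit, had 7.24 and 7.58 with reserpine and 6.77 and 6.72 with 5-HT, a difference of 0.67 (SE 0.16). mrps12, of the mitochondrial ribosome, had 7.80 and 8.11 with reserpine and 8.55 and 8.82 with 5-HT (-0.73, SE 0.16). In both genes reserpine was nearer to control, at 7.32 and 7.45 for gabrr3a and 8.23 and 8.14 for mrps12.

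Both counts of 0 depended on which reserpine array was kept. Without reserpine replicate 2, limma called 97 features against control, 15 higher and 82 lower, and without replicate 1 it called 0. The 97 included 5 of the genes tested, named here after the call was seen, and the lone reserpine array was assumed to vary like the other groups. abi3b, an actin regulator, had 8.48 and 8.41 in control, 10.02 on reserpine replicate 1 and 8.36 on replicate 2 (adjusted p = 0.0212 for replicate 1 alone). zyx, the focal adhesion protein zyxin, had 9.61 and 9.69 in control and 10.83 and 9.64 with reserpine (0.0415), and and4, an actinodin of the fin fold, 10.78 and 10.87 against 12.03 and 10.77 (0.04). The other two were tpm1 (0.0414) and the retinal recoverin gene rcvrna (10.89 and 11 against 9.81 and 11.15, 0.0468). Replicate 2 lay at or near control level for abi3b, zyx, and4 and rcvrna, and for tpm1 between control and replicate 1. Most of the called features had no single gene symbol, so these genes do not stand for the whole set. Against 5-HT the order turned around, with 191 features called without reserpine replicate 1 and 0 without replicate 2.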

How the data were processed

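Total RNA of whole larvae, pooled from 30 to 40 per array, was hybridised to Affymetrix Zebrafish Gene 1.0 ST arrays, per the labels' protocols. The authors deposited 1 processed value per feature and array, given to 2 decimals. No source used here gives the log base or normalization, and the deposited values have the range of log2 values. Values were used without further scaling. Features reaching an array's 25th percentile on at least 2 of 12 arrays were tested with limma 3.58.1 (R 4.3.3, lmFit and eBayes) over 6 group means, with Benjamini-Hochberg adjustment over 58127 features and a threshold of 0.05. The fit was checked on simulated data with independent noise for each feature. Such data lack shifts shared by many genes of an array, so the check does not cover them. The 2 arrays of each group limit the precision.

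Genes were named through the platform annotation, where 20491 probe sets had 1 symbol, 842 several and 51911 none, and 20013 matched a RefSeq gene by Entrez number. The feature with the highest mean stood for a gene. Of the tested features, 8932 shared all 12 values with another. The text names the 10 genes per direction with the smallest p (largest change where any passed, clone-based names left out). It also names 14 monoamine genes, of which slc6a3 was not analysed here, and up to 4 genes of smallest p per list. Only some of the 5 largest replicate differences per direction in each group are named. For the other comparisons it names up to 5 genes per direction. Genes that separate a single reserpine array were named after their values were seen. The members and all 40 lists were chosen with earlier results of these data known. Lists are described by counts and medians without a set test. Alternatives covered the filter, scaling, variance model, array weights, the arrays in the fit, the replicate block and each array left out.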

Additional observations from a re-analysis of the deposited data

How the results depend on the processing

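The count of 0 features against control held under each alternative except one. Leaving out single arrays gave 0 to 97 features, with 97 without reserpine replicate 2. Without control replicate 2 there were 0, with a smallest adjusted p of 0.0578. Against 5-HT, leaving out single arrays gave 0 to 191, with 191 without reserpine replicate 1. The difference between ages stayed at 0 throughout. Each replicate number marks 1 array in every group, so any 2 groups share only 2 numbers. Replicate differences of control and reserpine correlated at 0.18 over features, and the 15 pairs of groups ranged from -0.07 to 0.33. With the replicate block limma called 0 features against control (smallest adjusted p 0.793, 3326 at an unadjusted p under 0.05), 0 for the difference between ages (0.997) and 0 against 5-HT (0.232). Quantile normalization and median centring put the median of all genes at -0.006 and -0.02, against -0.02 as deposited. Of the list medians recomputed, 190 moved by less than the SD of the medians with either reserpine array left out, and 50 moved further. Those medians were themselves among the values compared, and the limit is widest where the reserpine replicates disagree. The count of 190 is therefore no measure of stability. Among named genes, changes of sign arose only when an array was left out. The difference from control then ranged from -1.85 to 0.89 for gnat2, -1.64 to 0.73 for gnb3b, -1.28 to 0.34 for opn1lw2, -1.26 to 0.68 for pde6c, -1.83 to 0.65 for prph2a, -1.55 to 0.82 for rgs9a, -1.12 to 0.39 for rom1a and -1.14 to 0.21 for rcvrna. It ranged from -0.085 to 1.58 for abi3b, -0.055 to 1.21 for and4, -0.01 to 1.18 for zyx, -0.18 to 2.75 for fosl1a, -0.04 to 0.81 for gata2a and -0.04 to 0.59 for tp63. For genes that follow the replicate number it ranged from -1.54 to 1.22 for cry1a, -0.79 to 1.11 for per2, -1.445 to 1.905 for prss59.2 and -0.87 to 1.78 for cpb1. For monoamine genes it ranged from -0.92 to 0 for ddc, -0.05 to 0.06 for dbh, -0.09 to 0.11 for mao, -0.085 to 0.54 for slc18a1, -0.43 to 0.11 for slc6a2 and -0.21 to 0.06 for tph2. It ranged from -0.15 to 0.20 for gabrr3a and -1.42 to 0.13 for si:dkey-14d8.6. For tpm1 it kept its sign, from -1.60 to -0.30. The cause of these changes was not tested beyond the array left out. With 2 arrays per group, differences under about 0.44 could not be resolved for a typical feature even before adjustment, and a call after adjustment needed more. The FCF1 probe set, at -0.86 (SE 0.14), had an adjusted p of 0.998 in limma. Dim genes such as slc18a1 lie near the low end of the scale.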

Other observations

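Neuropeptide genes had a median difference of 0.01 over 47 genes, with 6 above both controls on both reserpine arrays (12.8%, against 9.63% of all genes) and 5 below (10.6%, against 10.6%). Pigment cell genes had a median of 0.08 over 40, with 29 above the control mean (72.5%, against 44.3% of all genes) and 8 above both controls on both reserpine arrays (20%). Red blood cell genes had a median of 0.06 over 25, which was -0.04 without control replicate 1 and 0.26 without control replicate 2. Cartilage, bone and collagen genes had a median of 0.03 over 45, and skin ionocyte genes -0.02 over 34. Interferon response genes had 0.04 over 41 tested of 44 on the array, blood vessel genes 0.005 over 46 and notochord genes 0.03 over 25. Without control replicate 1 the medians were 0.03 for pigment cell genes, 0.01 for ionocyte genes and -0.01 for interferon response and notochord genes. Without control replicate 2 they were -0.02 for cartilage and for blood vessel genes.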
